A study of Mus musculus with 21 samples.

Results

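The hypoxia factors and oxygen sensors described here are 9 genes, namely the subunits of the hypoxia-inducible transcription factors Hif1a, Epas1 and Arnt, the oxygen-sensing machinery Egln1, Egln3 and Vhl, and the target genes Bnip3, Vegfa and Adm. A region of accessible chromatin was counted with one of them when, among the start sites of protein-coding transcripts on GRCm39 (GENCODE M39), the nearest belonged to that gene. This rule found 64 of the 41411 regions that the authors listed as changed after exercise, in 120 of 77985 listings, because a region can be listed in several comparisons. Of the 9 genes, 8 had a listed region (55.7% of 21575 protein-coding genes had one): Epas1 had 21, Hif1a and Vegfa 13 each, Egln3 6, Adm 4, Egln1 and Bnip3 3 each and Arnt 1, while for Vhl no region was listed.

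When oxygen is plentiful, prolyl hydroxylases of the EGLN family modify the alpha subunits HIF-1α (Hif1a) and HIF-2α (Epas1), the VHL ubiquitin ligase recognises the modified protein, and it is degraded. When oxygen is scarce the alpha subunits persist, pair with ARNT and bind short DNA sequences known as hypoxia response elements. Working muscle uses oxygen faster than at rest, and among the genes that the pathway controls are those for vessel growth (Vegfa), vessel dilation (Adm) and mitochondrial clearance (Bnip3), and Egln3 itself.

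Open chromatin was profiled by ATAC-seq, a method in which a transposase cuts and tags accessible DNA, in PCM1+ myonuclei from the quadriceps of adult male wildtype C57/Bl6 mice. PCM1 marks the nuclei of muscle fibres. Nuclei were labelled with an antibody against it and pulled out with magnetic beads that bind this antibody. The 21 samples formed 7 groups of 3. Trained mice had run voluntarily in wheels for 12 weeks, untrained mice had not, and both were killed 0, 6 or 72 h after an exhaustive treadmill run, whereas sedentary mice did not exercise at all. No group was trained but rested, so in the trained groups the effects of training and of the run cannot be told apart. Whether each of the 3 replicates stands for a mouse of its own is not stated in the labels.

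All values below are group means. The level of a region is the log2 of its normalised read count averaged over the 3 samples of a group, as the authors computed it, and the difference is the exercised mean minus the sedentary mean, so that 1 on this scale stands for a ratio of 2. The tables hold only regions under the authors' false discovery rate of 0.05, which are called gained or lost here. They hold no values per sample, so no spread could be given and no test was run, the depth per sample is unknown, and a region that is not listed is not shown to be unchanged. In sorted nuclei, fewer nuclei of a kind and less accessibility per nucleus cannot be told apart. A listed region was found for 10 of 10 muscle fibre markers, and also for 6 of 6 endothelial, 4 of 4 fibro-adipogenic, 4 of 4 smooth muscle, 3 of 4 immune and 1 of 3 satellite cell markers. At rest these regions reached 15.88 for the fibre markers and 11.50, 11.09, 10.11, 9.45 and 9.40 for the others in the same order. At promoters, a region was listed for 9 fibre markers, reaching 15.88, and for 1 gene of each other type, reaching at most 9.14. The part of such other nuclei in the changes was not tested.

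Stretches of 7 regions are printed here so that their letters can be read. They lie under 5 strongly gained regions, under 1 of the 2 Egln1 regions still lost at 72 h and under the promoter of Epas1. Each is the 150-base stretch of the region that holds the most matches to the letters named below, or, for Epas1, the 150 bases in front of the start site, read 5′ to 3′ on the plus strand of GRCm39. Capitals mark the core of the hypoxia response element (ACGTG or GCGTG) and the AP-1 site (TGACTCA or TGAGTCA), on either strand.
Hif1a, 145 kb upstream, chr12:73802387-73802536: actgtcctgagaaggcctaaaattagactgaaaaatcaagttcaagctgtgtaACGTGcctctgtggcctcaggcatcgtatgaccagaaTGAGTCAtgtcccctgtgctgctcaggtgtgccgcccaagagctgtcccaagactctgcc
Hif1a, 137 kb upstream, chr12:73811428-73811577: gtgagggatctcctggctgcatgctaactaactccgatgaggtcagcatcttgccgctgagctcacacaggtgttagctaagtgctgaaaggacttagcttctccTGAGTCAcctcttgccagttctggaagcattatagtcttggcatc
Egln3, 38.1 kb upstream, chr12:54288940-54289089: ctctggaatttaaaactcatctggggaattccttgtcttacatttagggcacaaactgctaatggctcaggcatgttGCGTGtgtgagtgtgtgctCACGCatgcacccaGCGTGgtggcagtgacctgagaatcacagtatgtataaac
Egln3, 73.1 kb upstream, chr12:54324045-54324194: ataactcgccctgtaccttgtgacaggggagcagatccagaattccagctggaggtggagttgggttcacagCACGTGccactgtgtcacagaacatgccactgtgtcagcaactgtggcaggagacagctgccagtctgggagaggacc
Vegfa, 26.7 kb downstream, chr17:46315218-46315367: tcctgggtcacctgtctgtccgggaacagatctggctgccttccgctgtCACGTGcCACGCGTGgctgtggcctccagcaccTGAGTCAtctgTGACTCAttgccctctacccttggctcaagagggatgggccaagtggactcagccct
Egln1, 19.2 kb downstream, chr8:125656624-125656773: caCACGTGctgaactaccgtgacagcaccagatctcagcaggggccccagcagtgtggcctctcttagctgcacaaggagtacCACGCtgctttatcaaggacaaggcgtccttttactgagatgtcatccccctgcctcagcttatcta
Epas1, in front of the start site, chr17:87060937-87061086: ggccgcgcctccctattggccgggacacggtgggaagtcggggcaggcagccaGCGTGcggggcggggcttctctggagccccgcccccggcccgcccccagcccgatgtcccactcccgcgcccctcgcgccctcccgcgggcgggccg

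The Vegfa stretch held 4 matches to the core, of which CACGTG counts on both strands, and 2 AP-1 matches. The most strongly gained Hif1a stretch held 1 of each, and the Egln3 stretches held 3 and 2 cores and no AP-1 match. The gained Egln3 regions that are not printed differed from these. The region at 76 kb held 2 cores and 1 AP-1 match, and the region at 48 kb 2 AP-1 matches and no core. The region at 39.2 kb held neither. The printed Egln1 region held 8 cores in all and no AP-1 match. Its neighbour at 20.6 kb, also lost at 72 h, held neither. A match only says that these letters are present.

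Directly after the run, more member regions were lost than gained in both training states, though losses prevailed by less than among the listed regions as a whole. In trained muscle at 0 h, 20 of 46 member regions were gained (43.5%), against 13.1% of all listed regions in that comparison. The count depended on the assignment, with 0 of 4 gained within 10 kb of a start site, 2 of 12 gained over the gene bodies with 5 kb on either side, and 0 of 4 gained when start sites of genes of every biotype were used. By nearest protein-coding start site, most of the 20 gains were at Hif1a (8 of 11 regions gained) and Egln3 (5 of 6). Epas1 had 5 of 16 gained and Vegfa 1 of 9, the 1 listed Bnip3 region was gained, and Egln1 and Adm had losses only. In untrained muscle at 0 h, 10 of 35 member regions were gained (28.6%), against 15.5% of all. The largest share was seen in untrained muscle at 6 h with 11 of 17 gained (64.7%, against 49.5% of all), and in trained muscle at 6 h it was 4 of 20 (20%, against 10.7%). At 72 h after the run, trained muscle had 2 of the 64 member regions listed, both lost and both in Egln1. Over the series, 2624 of the 41411 regions were listed at that time, of which 1.03% were gained. Regions of the same gene lie next to each other and are not independent of each other, so these shares are descriptions. The untrained 72 h table held no region at all.

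**Figure D1:**
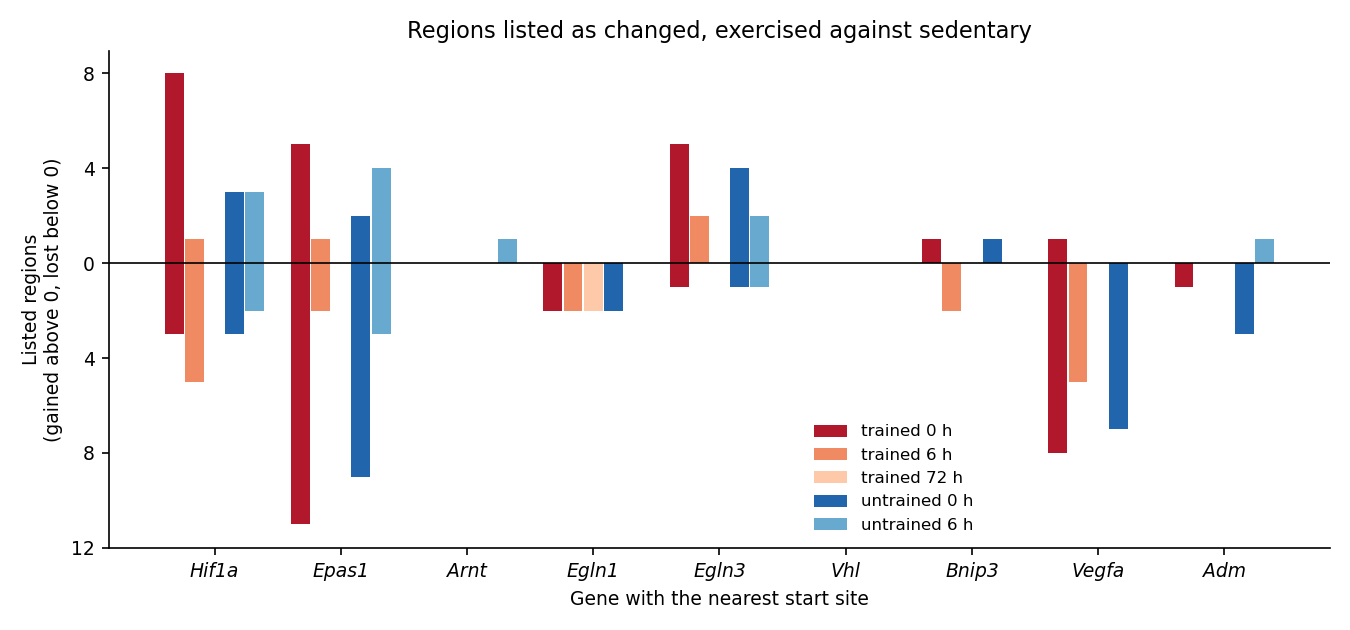
Number of listed regions (y axis) per gene (x axis), gained above and lost below the zero line, for each exercised group against sedentary. Hif1a and Egln3 had 8 and 5 gained regions in trained muscle at 0 h, Vegfa had 8 lost and 1 gained, and Egln1 had losses only.

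The median difference over the member regions was -0.64 in trained muscle at 0 h, against -0.86 over all listed regions, and -0.74 against -0.81 in trained muscle at 6 h. With the region of the largest difference of either sign per gene in place of all regions, the median in trained muscle at 0 h turned to 1.07. This was the value of the only listed Bnip3 region, and Vegfa, with 8 of 9 regions lost, entered with its gain of 1.75. Over all member regions, the median in untrained muscle was -0.82 against -0.84 at 0 h. At 6 h it was 0.97 in untrained muscle, where the median over all listed regions was -0.55. A median over both directions together depends on which direction is the more numerous. Taken by direction in untrained muscle at 6 h, the member medians were 1.12 for gains and -0.78 for losses. Over all listed regions they were 1.18 and -0.88. The size of the gains was close to that of all gained regions, with a median of 1.08 against 1.01 in trained and 0.93 against 0.99 in untrained muscle at 0 h. The lost member regions had medians of -0.88 in trained and -0.96 in untrained muscle at 0 h, against -0.91 and -0.90 over all lost regions.

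The listed regions of these genes lay far from the start sites. Their median distance was 77.5 kb, against 14.6 kb over all listed regions, and 27 of the 64 lay beyond 100 kb (42.2%, against 10.8%). By place, 34 were intergenic, 12 in introns and 2 in exons of the gene itself, 14 in introns and 1 in an exon of another gene, and 1 at a promoter (1.56%, against 17.7% of all). No listed region overlapped the body of Hif1a, Egln3, Vegfa, Adm or Vhl. The nearest start site therefore names these regions by position only. With the start sites of every transcript of genes of every biotype, 7 of the 64 kept a member as nearest gene. This setting added long noncoding RNA genes and also the noncoding transcripts of protein-coding genes. These were regions of Epas1, Arnt, Bnip3 and Vegfa, whereas Hif1a, Egln1, Egln3 and Adm kept 0.

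**Figure D2:**
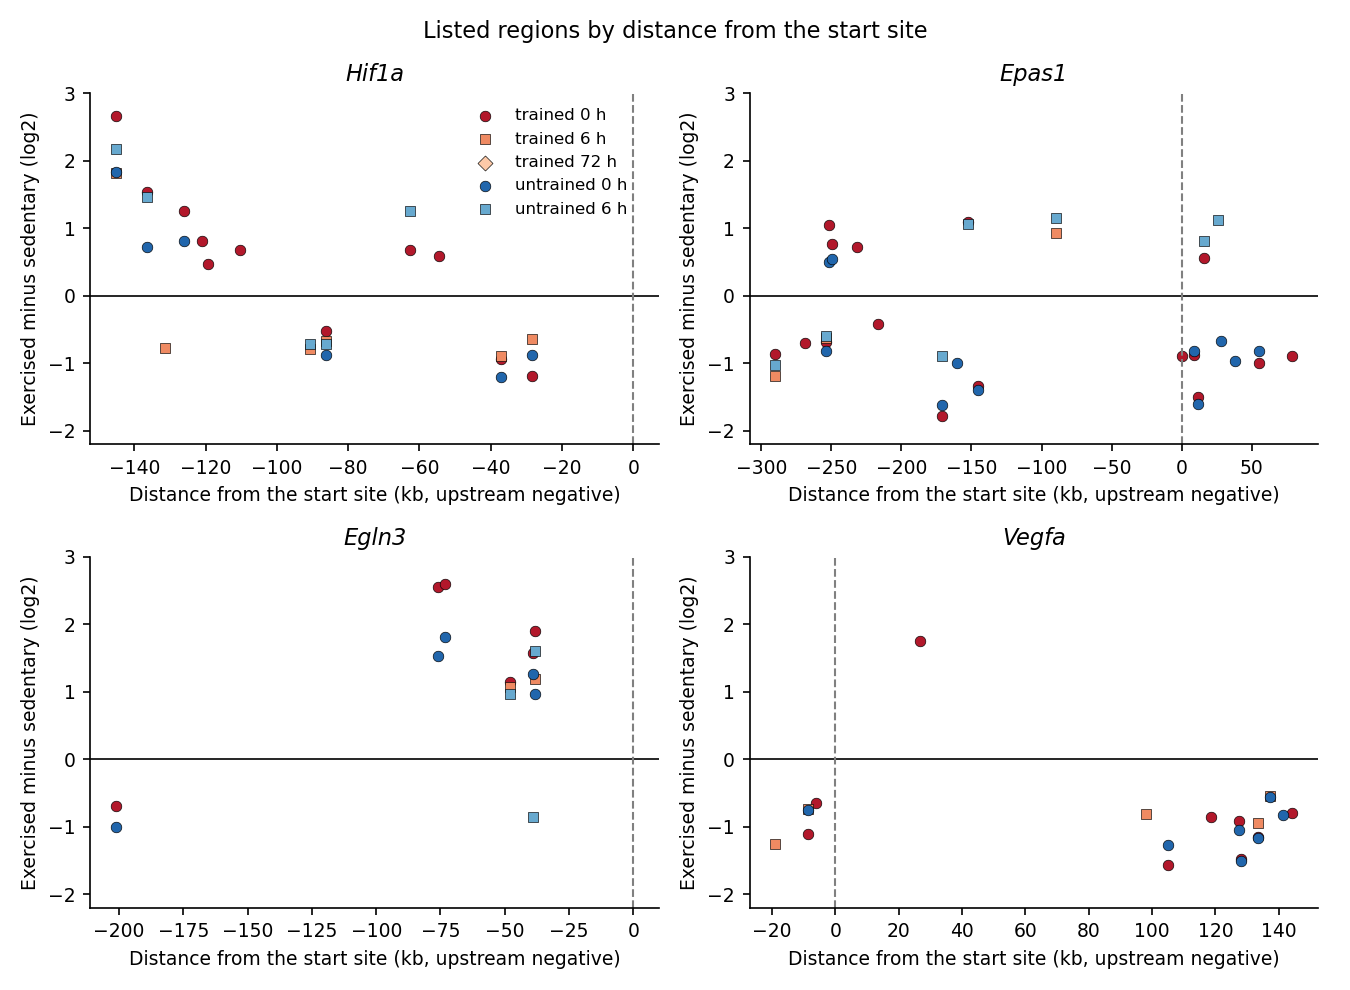
Difference of group means (exercised minus sedentary, log2, y axis) against distance from the start site (kb, upstream negative, x axis) for each listed region of Hif1a, Epas1, Egln3 and Vegfa, with colours and symbols for the exercised groups. The dashed line marks the start site, and gains of Hif1a and Egln3 lie upstream while nearly every listed region of Vegfa is below 0.

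Hif1a, which encodes the alpha subunit HIF-1α, had 13 listed regions, all upstream of the gene (chr12:73948149-73996321, plus strand) at 28.5 to 145 kb. The 3 largest rises in trained muscle at 0 h lay at 126 to 145 kb, the 2 regions nearest to the gene were lost, and in between both directions were listed. In trained muscle at 0 h, 8 were gained and 3 lost, and at 6 h 1 was gained and 5 lost. In untrained muscle, 3 were gained and 3 lost at 0 h, and 3 gained and 2 lost at 6 h.

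The region with the largest rise in the whole set lay 145 kb upstream of Hif1a (chr12:73802131-73803092), in an intron of Prkch, a protein kinase C gene, with the next gene's start site 170342 bp away. Its level was 11.02 in trained muscle at 0 h and 10.17 at 6 h, 10.19 in untrained muscle at 0 h and 10.53 at 6 h, and 8.35 in sedentary muscle. In normalised reads these were 2073, 1149, 1164 and 1483, against 327 in sedentary muscle, and the differences were 2.67, 1.82, 1.83 and 2.18. It was thus gained in all 4 early groups, highest right after the run in trained muscle and at 6 h in untrained muscle.

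Further gained regions stood in the same stretch of Prkch. The region at 137 kb reached 7.95 in trained muscle at 0 h, 7.12 in untrained muscle at 0 h and 7.88 in untrained muscle at 6 h, against 6.41 in sedentary muscle, which are differences of 1.54, 0.72 and 1.47. The region at 126 kb, over an exon of Prkch, reached 8.14 in trained and 7.70 in untrained muscle at 0 h, against 6.88 in sedentary muscle. Both rose in either training state, by more in trained muscle at 0 h.

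Hif1a had 5 more regions gained in trained muscle at 0 h, of which 1 was gained in a second group. In trained muscle at 0 h alone, the differences were below 1 at 121, 119 and 110 kb (0.82, 0.48 and 0.68) and at 54.4 kb (0.59). At 62.7 kb the level was 8.46 in trained muscle at 0 h and 9.04 in untrained muscle at 6 h, against 7.78 in sedentary muscle, so that the later rise in untrained muscle (1.26) exceeded the early rise in trained muscle (0.68).

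The 5 lost regions of Hif1a were each listed in 1 to 4 groups. The region at 86.1 kb (chr12:73861695-73862050) was lost in all 4 early groups, with differences of -0.52 in trained muscle at 0 h, -0.67 in trained muscle at 6 h, -0.87 in untrained muscle at 0 h and -0.71 in untrained muscle at 6 h, and a sedentary level of 8.90. The region nearest to the gene, at 28.5 kb, fell to 8.69 in trained muscle at 0 h, 9.24 in trained muscle at 6 h and 9.0 in untrained muscle at 0 h, against 9.88 in sedentary muscle. The region at 37.1 kb was lost in the same 3 groups (-0.93, -0.89 and -1.20). The regions at 90.6 kb (-0.79 in trained and -0.71 in untrained muscle) and 131 kb (-0.77 in trained muscle only) were listed at 6 h alone.

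Epas1, which encodes HIF-2α, the alpha subunit best known from vessel walls, had the most regions. Of its 21, 11 lay in introns of Prkce, upstream of it, 7 in its own introns, 1 at its promoter, 1 in its last exon with UTR sequence and 1 between genes. In trained muscle, 5 were gained and 11 lost at 0 h and 1 was gained and 2 lost at 6 h, and in untrained muscle 2 were gained and 9 lost at 0 h and 4 gained and 3 lost at 6 h.

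The promoter of Epas1 carried the only listed promoter region among the 64. This region of 3502 bp (chr17:87060090-87063591) had a level of 11.76 in trained muscle at 0 h, against 12.65 in sedentary muscle, or 3472 against 6443 normalised reads, a difference of -0.89. It was listed in no other comparison.

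Inside the gene, intronic regions lost accessibility in both training states at 0 h. At 11.7 kb from the start site (chr17:87072807-87073890) the level was 9.52 in trained and 9.42 in untrained muscle at 0 h, against 11.02 in sedentary muscle, which are differences of -1.50 and -1.60. At 8.83 kb the differences were -0.87 and -0.82, and at 55 kb -0.99 and -0.81. These 3 losses were of like size in trained and untrained muscle.

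The remaining regions within Epas1 differed by group. Losses at 28 and 38.1 kb were listed in untrained muscle at 0 h only (-0.67 and -0.96), and the loss at 79 kb in trained muscle at 0 h only (-0.89). The other intronic regions were gained, at 15.8 kb in trained muscle at 0 h (0.56) and untrained muscle at 6 h (0.82), and at 25.8 kb in untrained muscle at 6 h alone, where the level was 7.57 against 6.45 in sedentary muscle.

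In the introns of Prkce the largest fall of the set was listed 171 kb upstream of Epas1 (chr17:86889819-86890147). Its level was 6.36 in trained muscle at 0 h, 6.53 in untrained muscle at 0 h and 7.25 in untrained muscle at 6 h, against 8.14 in sedentary muscle. The fall was -1.78, -1.61 and -0.89, the smallest of them at the later time. The region at 145 kb fell by 1.34 in trained and by 1.40 in untrained muscle at 0 h. Between them lay a lost region at 160 kb and a gained region at 152 kb.

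Farther up in Prkce, gains and losses stood side by side. The region at 254 kb was lost in all 4 early groups, with differences of -0.69 and -0.62 in trained muscle at 0 and 6 h and -0.82 and -0.59 in untrained muscle at 0 and 6 h. Next to it, the regions at 252 and 250 kb were gained at 0 h, with differences of 1.05 and 0.77 in trained and 0.50 and 0.54 in untrained muscle. The most distant region, at 290 kb, was lost in trained muscle at 0 h (-0.86) and 6 h (-1.18) and in untrained muscle at 6 h (-1.02).

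Of the regions of Epas1, 3 more were gained and 3 more lost. The regions at 232 kb (0.73) and 152 kb (1.10) were gained in trained muscle at 0 h, the region at 152 kb also in untrained muscle at 6 h (1.06), and the intergenic region at 89.8 kb was gained at 6 h in trained (0.93) and untrained muscle (1.16). Losses were listed in trained muscle at 0 h at 269 kb (-0.70) and 217 kb (-0.42), and in untrained muscle at 0 h at 160 kb (-0.99).

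Arnt encodes the constitutive partner of both alpha subunits. It had 1 listed region, in an intron 5.68 kb from its start site (chr3:95347041-95347297), which was gained in untrained muscle at 6 h alone, with a level of 8.27 against 7.25 in sedentary muscle. The difference was 1.02.

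Egln1, the prolyl hydroxylase PHD2 and the principal oxygen sensor of the pathway, had only losses. It was the sole member with a region listed at 72 h, when 8.42% of protein-coding genes had a lost region. The region at 19.2 kb, in an intron (chr8:125656476-125657657), had a level of 9.10, 9.05 and 9.08 in trained muscle at 0, 6 and 72 h and of 9.19 in untrained muscle at 0 h, against 9.86 in sedentary muscle. Its neighbour at 20.6 kb had 9.11, 9.01 and 8.95 in trained muscle at 0, 6 and 72 h, against 9.76 in sedentary muscle. Both stayed at nearly the same lower level over the 3 times in trained muscle, with differences of -0.76, -0.81 and -0.78 and of -0.65, -0.75 and -0.81.

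The region of Egln1 nearest to its start site, at 12.1 kb, was lost in untrained muscle at 0 h only, with a level of 8.80 against 9.99 in sedentary muscle. In all, 5 listed regions overlapped the body of Egln1, of which 2 had the start site of Exoc8 as the nearest and were not counted with it.

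Egln3, the prolyl hydroxylase PHD3, is itself induced by hypoxia in many cells. Its 6 regions were all intergenic and upstream of the gene (chr12:54225767-54250673, minus strand), with the next protein-coding start site at least 250943 bp away. In trained muscle 5 were gained and 1 lost at 0 h and 2 gained at 6 h, and in untrained muscle 4 were gained and 1 lost at 0 h and 2 gained and 1 lost at 6 h.

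The largest rises of Egln3 came directly after the run at 73.1 and 76 kb. At 73.1 kb (chr12:54323767-54324477) the level was 10.31 in trained and 9.52 in untrained muscle at 0 h, against 7.71 in sedentary muscle, or 1268 and 736 normalised reads against 209. At 76 kb (chr12:54326683-54327637) it was 10.60 in trained and 9.59 in untrained muscle at 0 h, against 8.05 in sedentary muscle. The differences were 2.60 and 1.82, and 2.56 and 1.54, and neither region was listed at 6 h.

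The region at 38.1 kb, the nearest to the gene (chr12:54288779-54289123), had the lowest resting level of the 64 and was gained in all 4 early groups. Its level was 7.81 in trained muscle at 0 h and 7.09 at 6 h, 6.87 in untrained muscle at 0 h and 7.51 at 6 h, and 5.91 in sedentary muscle. As in the far Hif1a region, the rise was larger at 0 h than at 6 h in trained muscle (1.91 and 1.19) and larger at 6 h than at 0 h in untrained muscle (0.97 and 1.60).

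The neighbour at 39.2 kb (chr12:54289864-54290873) was the only one of the 64 listed in both directions. It was gained at 0 h, with 10.51 in trained and 10.20 in untrained muscle, and lost at 6 h in untrained muscle with 8.08, against 8.93 in sedentary muscle. In untrained muscle this region was thus higher at 0 h than at 6 h, while its neighbour at 38.1 kb was higher at 6 h than at 0 h. The region at 48 kb was gained in trained muscle at 0 h (1.15) and 6 h (1.07) and in untrained muscle at 6 h (0.97), and the region at 201 kb was lost at 0 h in trained (-0.69) and untrained muscle (-1).

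**Figure D3:**
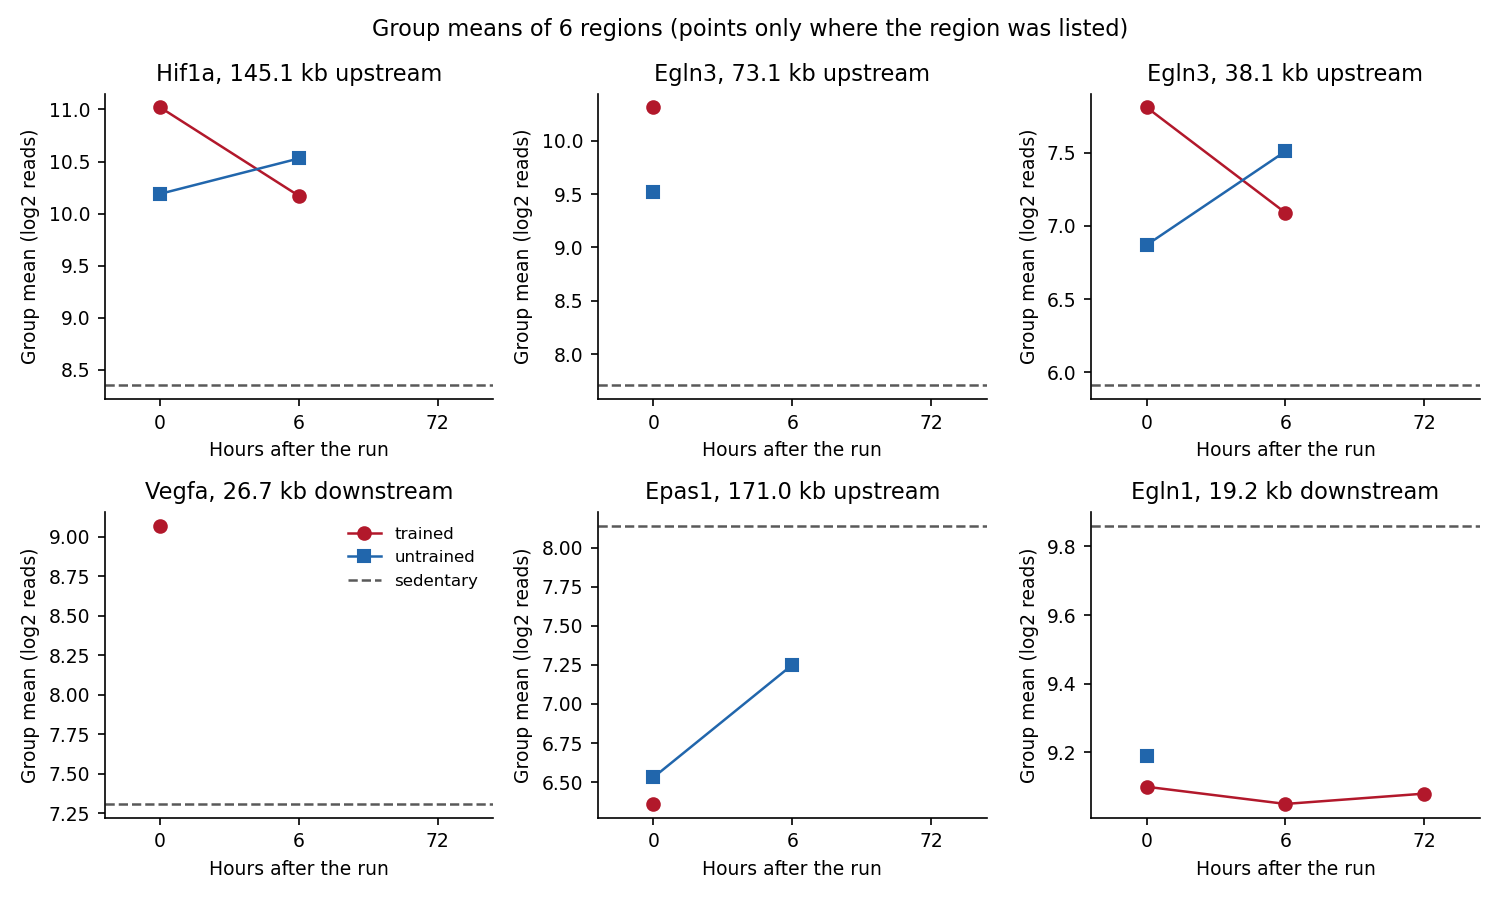
Group means (log2 normalised reads, y axis) of 6 regions by time after the run (0, 6 and 72 h, evenly spaced, x axis) in trained and untrained muscle, with the sedentary mean as a dashed line. A point is drawn only where the region was listed, so a missing point is no value, and there are no error bars because the tables hold no values per sample. The regions of Hif1a at 145 kb and Egln3 at 38.1 kb were highest at 0 h in trained and at 6 h in untrained muscle, and the region of Egln1 stayed low at 72 h.

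For Vhl, the subunit of the ubiquitin ligase that recognises hydroxylated alpha subunits, no region was listed in any comparison, neither by nearest start site nor over its gene body (chr6:113600920-113608599).

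Among the targets, Vegfa, the main growth factor for blood vessels, had mostly losses. Of its 13 regions, 8 were lost and 1 gained in trained muscle at 0 h, 5 lost in trained muscle at 6 h and 7 lost in untrained muscle at 0 h, and none was listed in untrained muscle at 6 h. All were intergenic, 3 of them upstream of the gene (chr17:46327919-46343309, minus strand) and 10 beyond its end.

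The single gained region lay 26.7 kb downstream of the start site (chr17:46314986-46315625). Its level was 9.07 in trained muscle at 0 h, against 7.31 in sedentary muscle, or 536 against 159 normalised reads, a difference of 1.75. It was listed in no other group. It held 7 matches to the core of the hypoxia response element and 2 to the AP-1 site, of which the printed stretch shows 4 and 2.

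The regions in front of Vegfa were lost. The nearest, at 6 kb, was listed in trained muscle at 0 h only (-0.64), and the region at 8.73 kb fell to 8.21 in trained muscle at 0 h, 8.58 in trained muscle at 6 h and 8.58 in untrained muscle at 0 h, against 9.32 in sedentary muscle. The region at 18.9 kb was listed in trained muscle at 6 h alone, with 8.16 against 9.41 in sedentary muscle.

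A group of 9 lost regions lay 98 to 144 kb downstream of the Vegfa start site. The largest falls were at 105 kb (-1.57 in trained and -1.27 in untrained muscle at 0 h) and 128 kb (-1.47 and -1.51). The widest of them, of 2629 bp at 119 kb, was lost in trained muscle at 0 h only, with 11.81 against 12.66 in sedentary muscle, the highest resting level of the 64. The region at 133 kb was lost in trained muscle at 0 h (-1.15) and 6 h (-0.95) and in untrained muscle at 0 h (-1.16). The other 5 of this group had differences between -1.04 and -0.54.

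Bnip3, which marks mitochondria for removal, had 3 regions with opposite directions at the 2 early times. The region 21.5 kb downstream of its start site (chr7:138488771-138489765) was gained at 0 h, with 9.40 in trained and 9.22 in untrained muscle, against 8.33 in sedentary muscle. In trained muscle at 6 h, the intronic region at 2 kb (chr7:138507737-138509256) was lost with 10.11 against 11.11 in sedentary muscle, and the exonic region at 10.6 kb with 8.06 against 8.66. None of the 3 was listed at both times.

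Adm, the gene of the vessel-dilating peptide adrenomedullin, had 4 intergenic regions downstream of it. At 0 h, 1 was lost in trained muscle and 3 in untrained muscle, of which the region at 61.6 kb was shared (-0.83 and -1). The regions at 20.3 kb (-0.80) and 63.2 kb (-0.92) were listed in untrained muscle at 0 h only, and the region at 40.7 kb was gained in untrained muscle at 6 h, with 8.71 against 8.04 in sedentary muscle.

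To set the training states side by side, the regions listed at the same hour in both were compared. The comparisons share the sedentary samples, so the values are given beside each other, and no test of the difference was possible because the tables hold no values per sample. At 0 h, 27 member regions were listed in both states, each in the same direction, 10 gained and 17 lost. The gain was larger in trained muscle for 10 of the 10, with a median trained minus untrained difference of 0.67, whereas over all 2077 regions gained in both states at 0 h it was larger in trained muscle for 61.9%, with a median of 0.14. The 10 belonged to Egln3 (4), Hif1a (3), Epas1 (2) and Bnip3 (1), with trained minus untrained differences from 0.18 at Bnip3 to 1.02 at the region of Egln3 at 76 kb. For the losses, the fall was larger in trained muscle for 7 of 17 (41.2%), against 65.5% of 15137 over all regions lost in both.

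**Figure D4:**
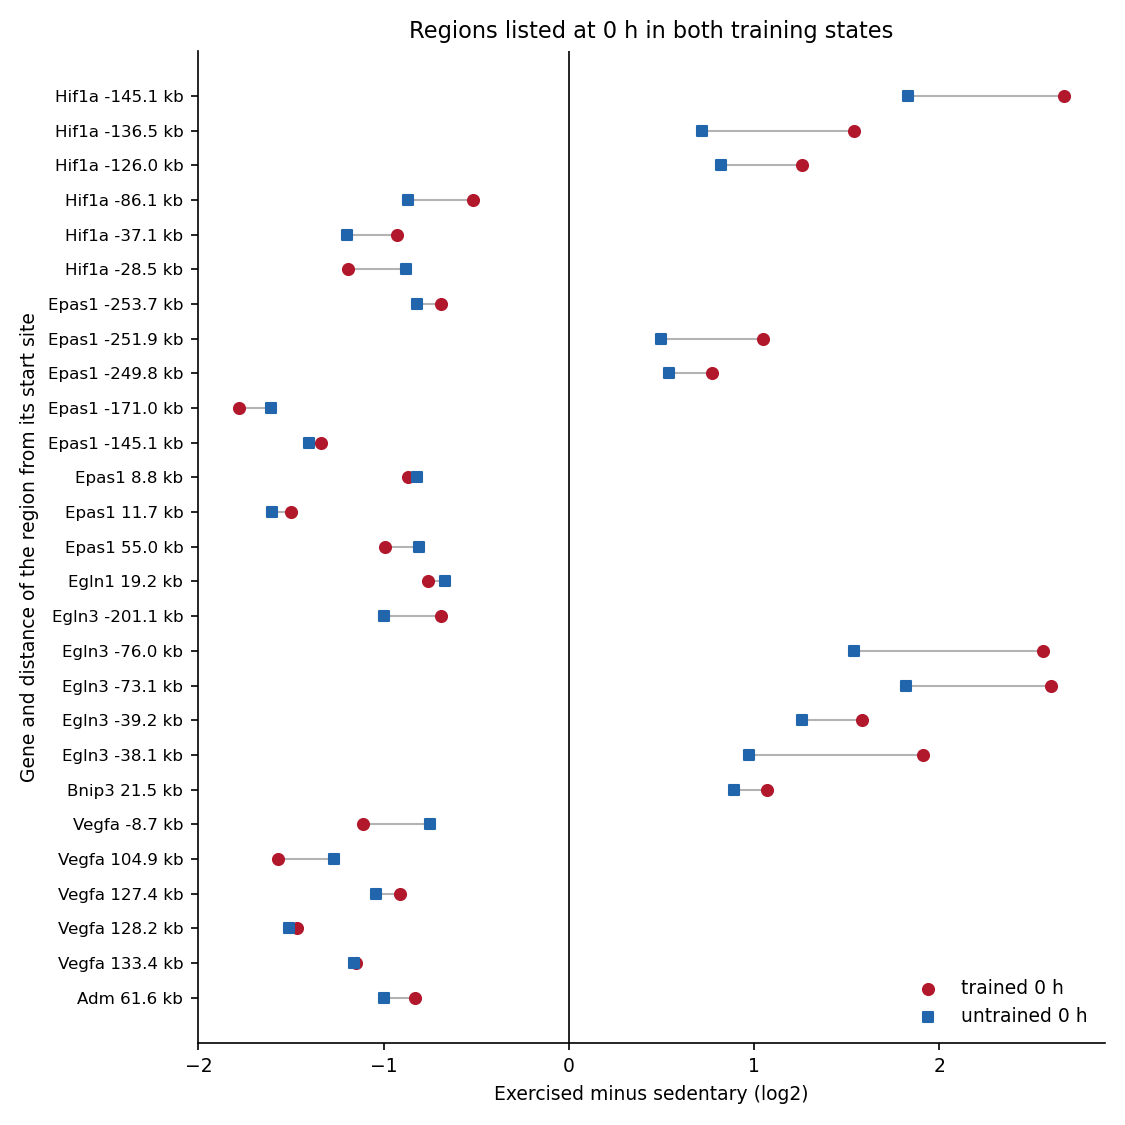
Difference from sedentary (log2, x axis) in trained and untrained muscle at 0 h for the 27 member regions listed in both states, named by gene and distance from the start site (y axis, upstream negative). In the 10 gained regions the trained point lies to the right of the untrained one, while in the lost regions the points lie close together, in either order.

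Regions listed in a single state at 0 h also differed in direction. In trained muscle alone 10 were gained and 9 lost (52.6% gained, against 14.1% over all regions listed in trained muscle alone), and in untrained muscle alone 0 were gained and 8 lost (against 30% gained over all). At 6 h, 8 regions were listed in both states, 4 gained and 4 lost. Of the 4 gained, the rise was larger in trained muscle for 1, which was the region of Egln3 at 48 kb, against 6.38% of the 1191 regions gained in both states at 6 h. In trained muscle alone 0 were gained and 12 lost at 6 h, and in untrained muscle alone 7 were gained and 2 lost. Both were near the shares over all regions listed in a single state at 6 h, of which 1.03% were gained in trained muscle alone and 82.3% in untrained muscle alone. A region listed in one state only is not shown to differ between them.

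Over the 5 comparisons, 28 of the 64 regions were listed in 1 (43.8%), 21 in 2 (32.8%), 10 in 3 (15.6%), 5 in 4 (7.81%) and 0 in 5, near the 44.4%, 32.4%, 14.8%, 7.20% and 1.17% of all listed regions. The 5 listed in 4 were the regions of Hif1a at 145 and 86.1 kb, of Epas1 at 254 kb, of Egln1 at 19.2 kb and of Egln3 at 38.1 kb. Per kb of sequence the median resting level was 9.50, against 9.83 over all listed regions, and 8.71 for the member regions gained in any comparison, against 9.96 for those lost. All gained and lost regions of the series showed the same order, with 8.60 and 9.99.

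By sequence, the core of the hypoxia response element (ACGTG or GCGTG on either strand, so that CACGTG counts on both) was found in 40 of 64 member regions (62.5%), against 55.9% of all listed regions. In the 200 bases on either side of each centre, which gives every region the same length, it was found in 46.9%, against 43.6%. The longer form with a C after the core (ACGTGC or GCGTGC) was found in 32.8%, against 24.1%. Split by direction, the core was in 66.7% of member regions gained in any comparison, against 51.8% of all gained regions, and in 58.5% of those lost, against 56.7%. The longer form was in 9 of the 24 gained member regions (37.5%, against 17.1% of all gained regions) and in 29.3% of those lost, against 25.4%. Gained member regions were wider, with a median of 678 bp against 511 bp of all gained regions. Per kb the longer form was found 0.862 against 0.341 times in gained and 0.598 against 0.501 times in lost regions. Around the centres, the core was in 54.2% against 42% of gained and 41.5% against 43.9% of lost regions. The AP-1 letters were found in 10 of the 24 member regions gained in any comparison (41.7%, against 46.7% of all gained regions) and in 7 of 41 lost in any comparison (17.1%, against 11.8%). The CRE letters TGACGTCA, the site of CREB proteins, were in 1 member region, in front of Epas1 at 250 kb (1.56%, against 1.44% of all), and the MEF2 letters TATTTATA or TAAAAATA in 9 (14.1%, against 13.8%).

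To place the 9 genes in their pathway, 50 further genes of hypoxia signalling were counted, among them cofactors, ubiquitin ligase subunits and glycolytic targets. Of these, 47 had a region listed in any comparison, against 55.7% of protein-coding genes. In trained muscle, 14 of the 50 had a gained and 42 a lost region at 0 h (28% and 84%, against 12% and 50.3% of protein-coding genes), 5 and 21 at 6 h (10% and 42%, against 4.86% and 22.6%), and 1 and 9 at 72 h (2% and 18%, against 0.125% and 8.42%). In untrained muscle, 9 had a gained and 32 a lost region at 0 h (18% and 64%, against 9.04% and 32.4%), and 17 and 12 at 6 h (34% and 24%, against 12.3% and 12.3%). Both directions were above the share over all genes in each of the 5 comparisons, except that at 72 h the gained share rested on Rora alone and was 0 within 100 kb of the start sites. Genes differ in how much open chromatin surrounds them, and the part of this in the shares was not tested. The shares over all genes also count genes without any listed region. Among the 12013 protein-coding genes with one, 10852 had a lost and 2584 a gained region in trained muscle at 0 h. Of the 47 pathway genes with one, 42 had a lost and 14 a gained region in that group.

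**Figure D5:**
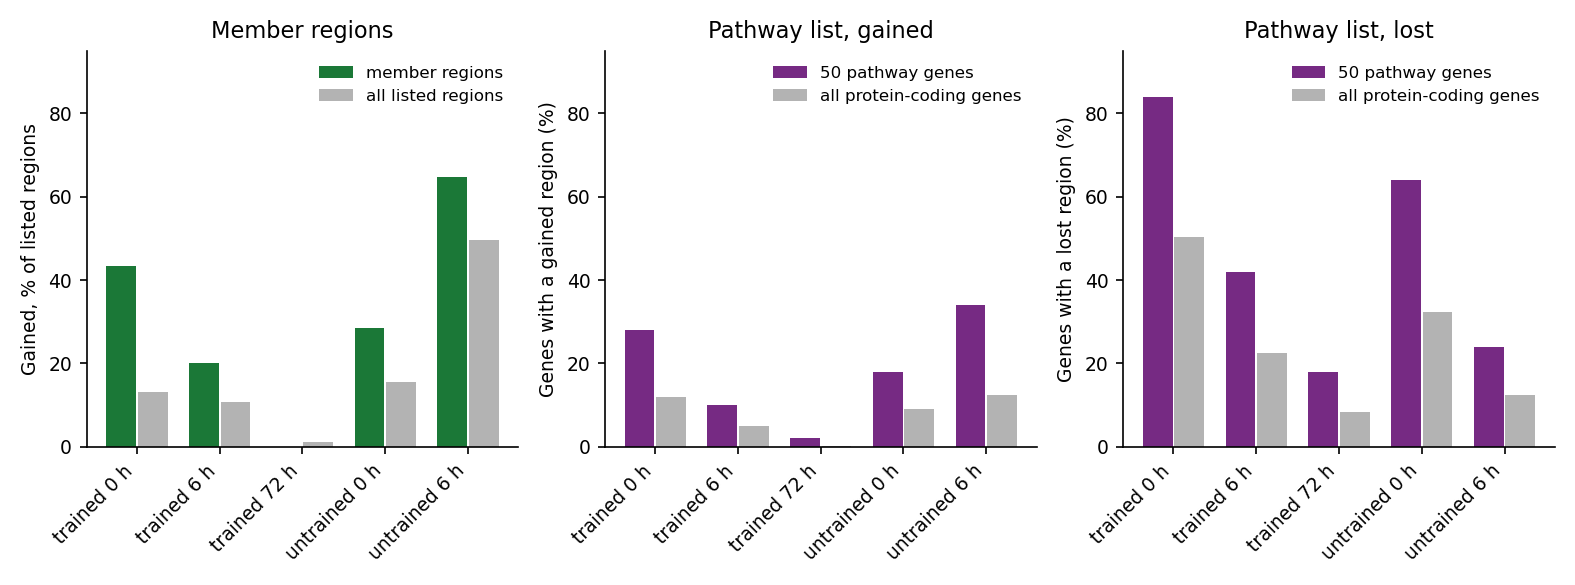
Share of listed regions that were gained for the member regions beside all listed regions (left), and share of the 50 pathway genes beside all protein-coding genes with a gained (middle) or lost (right) region, in percent on each y axis and by exercised group on the x axis. The member share was above that of all listed regions at 0 and 6 h in both training states. The shares of pathway genes were above those of all genes in both directions, at 72 h with 1 gained gene only. All protein-coding genes here include those without any listed region.

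Within 100 kb of the start sites, the largest rises of the pathway list were at Slc2a1, the glucose transporter GLUT1, Siah1a, a ubiquitin ligase of the hydroxylases, and Crebbp, a coactivator of the alpha subunits. In trained muscle at 0 h the level was 7.83 against 5.24 in sedentary muscle near Slc2a1, 9.84 against 8.19 near Siah1a and 9.08 against 7.48 near Crebbp. The same Siah1a region led in untrained muscle at 0 h (2.34), followed by Rora (2.03) and Siah2 (1.70), and the same Crebbp and Slc2a1 regions in untrained muscle at 6 h (2.32 and 2.09), with Bhlhe41, a repressor of the clock, between them (2.22). In trained muscle at 6 h the rises were smaller, with 1.54 at another Slc2a1 region, 1.15 at Crebbp and 1.04 at Vldlr, the receptor of very low density lipoprotein.

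Epo, the gene of erythropoietin, was among the 3 largest falls of the list in all 4 early groups. Its differences were -1.99 in trained and -1.49 in untrained muscle at 0 h, at 1 region, and -1.60 in trained and -1.18 in untrained muscle at 6 h, at another region. Ldha, the lactate dehydrogenase of glycolytic muscle, fell by 1.77 in trained and by 1.64 in untrained muscle at 0 h, at different regions. Siah2 fell by 1.83 in trained muscle at 0 h, at another region than the one that rose in untrained muscle. Both gained and lost regions of Siah2 were listed in both states at 0 h. Bnip3l, the relative of Bnip3, fell by 1.54 in untrained muscle at 0 h, and it had lost regions in trained muscle at 0 h as well. At 6 h the regions of the demethylase Kdm4b (-1.62 in trained and -1.35 in untrained muscle) and of Bhlhe40 (-1.42 and -1.22) were lost in both states. At 72 h in trained muscle the falls were at Mxi1 (-1.17), Rwdd3 (-1.11) and Rora (-0.98), and no region of the list within 100 kb was gained.

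The genes whose counts of gained and lost regions over the 5 comparisons were most like those of a member, by Euclidean distance over the 10 counts, were Tspan15 (0) and Frmd4b (1.41) for Vegfa, Bmal1 and Tmem229b (2.24 each) for Egln3, AW554918 and Rapgef1 (3.46 each) for Hif1a and Itgb6 (4) and Fmnl2 (4.24) for Epas1. Bmal1, a core gene of the circadian clock, had 4 gained and 1 lost region in trained muscle at 0 h and 3 gained in untrained muscle at 0 h.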

How the data were processed

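ATAC-seq was run on PCM1+ myonuclei of 21 samples in 7 groups of 3. Per the study's methods and the submitters' processing notes, reads were trimmed (Trimmomatic 0.39), mapped to GRCm39 (Bowtie2 2.4.4, SAMtools 1.15), peaks were called with Genrich 0.6.1, and DiffBind 3.4.11 with DESeq2 compared each exercised group with sedentary. ChIPseeker 1.30.3 annotated the regions. The deposited log2 values are the group means of normalised reads that the authors computed in DiffBind, for regions under a false discovery rate of 0.05. Further columns hold the authors' own fold change, p-value and false discovery rate, which were not used. Of the 6 tables of all changed regions, 5 were filled and the untrained 72 h table held a header only. The other 11 files, including that table and those split by direction, were not used. Without values per sample, no spread, test or paired analysis was possible and the depth is unknown.

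The exercised minus the sedentary mean was taken per region (Python 3.11.15, pandas 2.3.3, numpy 2.4.6). The sedentary mean of a region was the same in every table. Regions were given to the nearest start site of a protein-coding transcript of GENCODE M39, by distance from the edge of the region. The gene positions in the tables lie on another build. For genes in both annotations, 10.5% of the regions lay within 1 kb of a start site on GRCm39, against 3.55% with RefSeq start sites on GRCm38, and no region ran past a GRCm39 chromosome end. Sequences were read from GRCm39 with pysam 0.24.0, and matplotlib 3.10.9 drew the plots. The assignment and motif counts were tested on simulated data.

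The 9 genes, the pathway list, the markers and the motifs were chosen with earlier results of these data known. Named were all regions of the 9 genes, for the pathway list the 3 largest rises and falls per comparison within 100 kb of a start site, and for members with 10 or more listings the 2 genes with the most similar counts. Alternatives changed the assignment, the distance limit, the size of the difference and the motif.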

Additional observations from a re-analysis of the deposited data

How the results depend on the processing

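The counts of member regions depended on how regions were given to genes, and did not change when distance was taken from the centre or from the 5 prime end of each gene. With start sites of genes of every biotype, trained muscle kept 0 gained and 4 lost regions at 0 h, 0 and 3 at 6 h and 0 lost at 72 h, and untrained muscle 0 and 2 at 0 h and 1 and 0 at 6 h. By the gene symbols printed in the tables, 20 of the 64 regions stayed among 49, namely 13 of Hif1a and 7 of Epas1. Of the 49, trained muscle had 13 gained and 30 lost at 0 h and 1 and 13 at 6 h. Untrained muscle had 7 and 20 at 0 h and 7 and 4 at 6 h. Within 100 kb of the start site, trained muscle had 10 gained and 13 lost regions at 0 h and 3 and 11 at 6 h. Untrained muscle had 5 and 14 at 0 h and 8 and 3 at 6 h. Within 10 kb, trained muscle had 0 and 4 at 0 h, 0 and 2 at 6 h and 0 lost at 72 h, and untrained muscle 0 and 2 at 0 h and 1 and 0 at 6 h. Over gene bodies with 5 kb on either side, trained muscle had 2 and 10 at 0 h and 0 and 5 at 6 h, and untrained muscle 1 and 10 at 0 h and 3 and 0 at 6 h. With a difference of at least 1, trained muscle had 12 and 8 at 0 h, 3 and 3 at 6 h and 0 and 0 at 72 h. Untrained muscle then had 4 and 10 at 0 h and 8 and 1 at 6 h. Leaving out regions inside another gene was an alternative chosen after seeing the data. Trained muscle then had 13 gained and 20 lost at 0 h and 3 and 13 at 6 h. Untrained muscle had 5 and 21 at 0 h and 8 and 3 at 6 h. The median difference within 100 kb was -0.64 in trained and -0.81 in untrained muscle at 0 h. With the region of the largest difference per gene it reversed to 1.07 in trained muscle at 0 h, and was -0.90 at 6 h and -0.81 at 72 h in trained muscle and -1 at 0 h and 1.16 at 6 h in untrained muscle. For the pathway list, those symbols gave 19 genes with a lost region in untrained muscle at 0 h and 9 with a gained region in untrained muscle at 6 h, and within 100 kb 0 had a gained region at 72 h. The longer hypoxia response element was in 21 member regions, against 40 for the core. No paired analysis was possible because the tables hold group means only, and for the same reason leaving out each replicate could not be run. Distant regions may belong to other genes, and a region's listing depends on its depth, which is unknown.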
